A study of Rattus norvegicus with 11 samples.

Results

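The immediate early AP-1 and stress genes described here are Fos, Fosb, Fosl1, Jun, Junb, Egr1, Atf3, Ier2, Ier3 and Dusp1, chosen by their symbols. All 10 of the 10 symbols were found among the 24481 genes with read counts, and all 10 also had an FPKM, a level of reads per gene length and library size. The mRNA of the ileum was sequenced from SD rats aged 6 to 8 weeks. The SAP group (4 libraries) had severe acute pancreatitis from 3% sodium taurocholate in the pancreatic duct and then received vehicle, the JZL184 group (4 libraries) had the same pancreatitis and received JZL184 at 10 mg/kg, an inhibitor of the enzyme MAGL that breaks down the endocannabinoid 2-AG, and the control group (3 libraries) received vehicle. Injections were given 24 h after surgery and the ileum was taken 24 h after the injection. The protocol has the rats divided into the 3 groups 24 h after surgery, yet describes no sham operation of the controls. Whether the controls were operated on is thus unclear, and the operation and the pancreatitis cannot be told apart in comparisons with control. The sample titles of the SAP group speak of oil and the treatment label of the controls of a control plasmid, whereas the protocol describes vehicle for both, so the groups were those of the treatment protocol.

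Immediate early genes are transcribed within minutes of a signal, without new protein synthesis, and their messenger RNAs are short-lived. Fos proteins pair with Jun proteins to form AP-1, a transcription factor that acts downstream of MAP kinases in growth, wounding and inflammation, and the intestinal epithelium uses it in repair. Egr1 is a zinc finger transcription factor of the same response, and Atf3 is a stress-induced relative of the AP-1 proteins. Ier2 and Ier3 are small immediate early proteins, and Dusp1 is a phosphatase that switches MAP kinases off.

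The windows around the starts of Egr1, Ier2 and Dusp1 held 4 whole matches to 2 motifs known for immediate early control, which are shown for that reason. RefSeq promoters of the GRCr8 build, from 250 bases before to 50 after the start, were on hand for 6 of the 10 genes, namely Fosb, Fosl1, Junb, Egr1, Ier2 and Dusp1. Each sequence runs 5′ to 3′ on the plus strand, and capitals mark a CArG box (bound by serum response factor) or the cyclic AMP response element TGACGTCA (CRE, bound by CREB and ATF proteins).

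Egr1, CArG box 105 bases before the start, chr18:26736963-26736992: gtcggtccttCCATATTAGGgcttcctgct

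Egr1, CArG box 83 bases before the start, chr18:26736985-26737014: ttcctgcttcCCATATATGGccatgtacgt

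Ier2, CRE 66 bases before the start, chr19:40399296-40399325: tggcgtttcagTGACGTCActcttactcta

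Dusp1, CRE 124 bases before the start, chr10:17184718-17184747: ggcagggcgggTGACGTCAccacccggtca

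Both strands were searched. A CArG box stood in 1.64% and the whole CRE in 1.83% of all 33469 RefSeq promoters of this length. The CRE core TGACG, which the whole CRE contains, stood in 21.2% of them and in 5 of the 6 genes, all but Fosb. The AP-1 site TGANTCA (7.33% of all promoters) and the EGR site GCGNGGGCG (4.98%) were in 0 of the 6 windows. These matches are letters in a window and show no binding.

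Per library, 26341299 to 33847135 reads lay on genes. Control libraries 1 and 2 were near-copies in their counts, with a chi-square of 2.81 for the average gene (20 reads or above), against 77.5 to 563 in the other 14 pairs within groups, and were therefore counted as 1 sample, so that n = 2 for control. SAP libraries 1 and 2 stood apart from SAP libraries 3 and 4, and SAP library 2 had 20 reads on 3 Y-linked genes, where the other 10 libraries had 1222 to 4665, although the rats are described as male. SAP library 2 also had 7826 reads on LOC100911498 (rat Xist), and the other 10 libraries had 0 to 56. These are the reads of a female rat, and whether the animal or the label differs was not tested. The labels name intestinal epithelial cells as well as ileum. The 10 epithelial markers were all detected, and so were markers of smooth muscle, where the sum over 8 genes reached 2154 FPKM, so the RNA was treated as that of whole ileum. In such tissue, fewer cells of a type and less RNA per cell cannot be told apart. Nothing in the labels says that the libraries are from different rats beyond their numbering, so p-values measure the spread between these libraries.

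Junb was the member with the highest level in every group. In control its mean was 85.8 ± 8.68 FPKM (SD, n = 2). The SAP mean was 66.1 ± 24.3 FPKM (SD, n = 4), and JZL184 reached 153 ± 52.4 FPKM (SD, n = 4). In control it was followed by Atf3, Ier2, Jun, Fos, Ier3, Dusp1, Egr1, Fosb and Fosl1. Among the 9 neighbours in that order, Atf3 and Ier2 overlapped, as did Fos and Ier3, and the other 7 did not, but with 2 control samples a gap is easily met. In SAP the order was Junb, Ier2, Jun, Fos, Ier3, Egr1, Dusp1, Atf3, Fosl1 and Fosb, and in JZL184 it was Junb, Ier2, Ier3, Jun, Dusp1, Fos, Egr1, Atf3, Fosl1 and Fosb. In each of these groups 7 of the 9 neighbours overlapped. In SAP the exceptions were Atf3 above Fosl1 and Fosl1 above Fosb, and in JZL184 they were Junb above Ier2 and Fosl1 above Fosb.

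**Figure D1:**
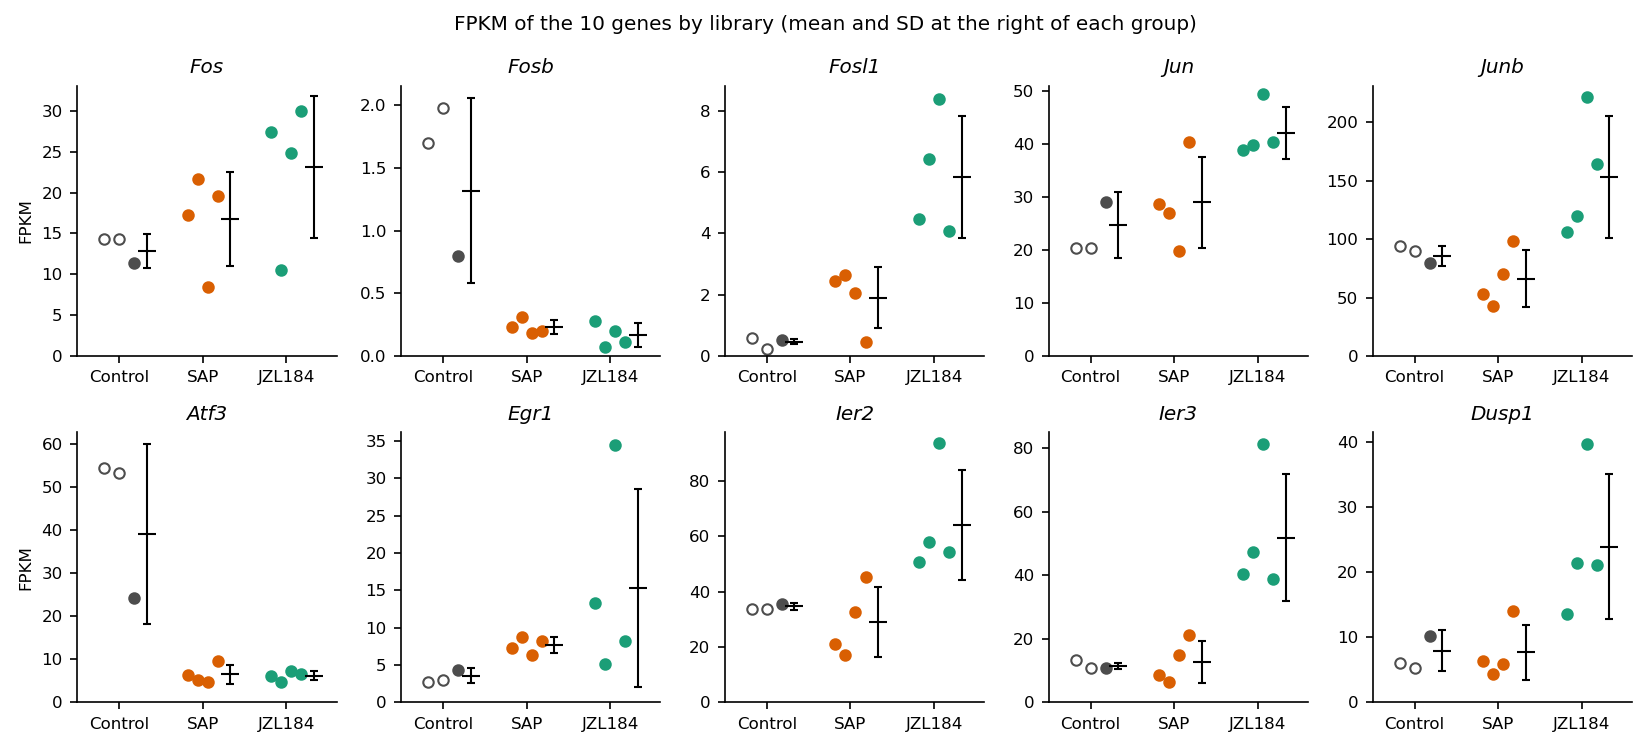
FPKM of each of the 10 genes in control, SAP and JZL184, on a linear axis from 0 with its own range in each panel, with a point for each library and a bar for mean ± SD (n = 2, 4 and 4). Open control points are libraries 1 and 2, which were averaged to 1 sample. The 4 JZL184 points of Ier3 sit between 38.75 and 81.17 FPKM, above all SAP points, and the Atf3 points of SAP and JZL184 sit between 4.73 and 9.67, below all control points.

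The first comparison asks how the ileum of rats with pancreatitis differs from that of controls. Atf3 and Fosb stood out as the members with lower levels in SAP, whereas Fosl1 and Egr1 had higher mean levels. A gene is called here when edgeR's quasi-likelihood test over all genes gives a Benjamini-Hochberg adjusted p under 0.05 and a fold of more than 2 in either direction, and none of these differences was called.

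Atf3 (chromosome 13) was 54.43, 53.30 and 24.29 FPKM in control libraries 1 to 3, and 6.42, 5.14, 4.82 and 9.67 FPKM in SAP libraries 1 to 4. Every SAP library lay below every control library, though control library 3 had less than either of the other two. The log2 fold change was -2.76 (standard error 0.46, edgeR adjusted p = 0.226, DESeq2 adjusted p = 9.2e-05).

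Fosb (chromosome 1), a Fos protein that pairs with Jun proteins, was the least abundant member in SAP. It measured 1.70, 1.98 and 0.80 FPKM in the control libraries and 0.23, 0.31, 0.18 and 0.20 FPKM in the SAP libraries, again without overlap. The log2 fold change was -2.72 (standard error 0.45, edgeR adjusted p = 0.219, DESeq2 adjusted p = 1.2e-04). The reads behind it were few, from 20 to 37 per SAP library and from 91 to 218 per control library.

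Fosl1 (chromosome 1) encodes the AP-1 subunit Fra-1. Its FPKM was 0.58, 0.23 and 0.53 in control and 2.45, 2.64, 2.06 and 0.44 in SAP. SAP library 4 fell within the control range and the other 3 SAP libraries lay above it. The log2 fold change was 1.83 (standard error 0.68, edgeR adjusted p = 0.459).

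Egr1 (chromosome 18) had 2.79, 3.03 and 4.29 FPKM in control, and 7.34, 8.82, 6.37 and 8.22 FPKM in SAP, so that the groups did not overlap. Its log2 fold change was 0.94 (standard error 0.33, edgeR adjusted p = 0.459).

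In the remaining 6 members the libraries of SAP and control overlapped. Their log2 fold changes were 0.20 for Fos, 0.09 for Jun, -0.52 for Junb, -0.39 for Ier2, 0.03 for Ier3 and -0.15 for Dusp1, and those of Fos, Jun, Ier2, Ier3 and Dusp1 changed sign under other processing. For Junb, Ier2 and Ier3 the 4 SAP libraries divided into the same pairs as over all genes: libraries 1 and 2 had 52.98 and 42.83 FPKM of Junb, and libraries 3 and 4 had 70.04 and 98.38. With only SAP libraries 1 and 2, edgeR called Junb (log2 fold change -1.13, adjusted p = 0.0083) and Ier2 (-1.16, adjusted p = 0.0056) lower and Fosl1 (2.18, adjusted p = 0.0033) higher, while with only SAP libraries 3 and 4 these values were -0.09, 0.11 and 1.34 and not called. The setting with SAP libraries 1 and 2 called 37.2% of all genes and 5 of the 10 members, near that share, and the setting with SAP libraries 3 and 4 called 0.482% of all genes and 2 members (Atf3, Fosb).

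edgeR thus called 0 of the 10 members, and 0% of the 16029 genes tested. At an unadjusted p below 0.05 there were 2 members higher (Fosl1, Egr1) and 2 lower (Atf3, Fosb), beside 5.69% and 3.4% of all genes. DESeq2, run without the filter on low counts, tested 23278 genes. It called Atf3 and Fosb lower, 2 of 10, beside 0.266% of these genes, and 0 members higher, beside 0.627%. The count from limma-voom was 0 members, beside 0.131% of all genes. Without the sample of control libraries 1 and 2, the log2 fold changes were -1.98 for Atf3 and -1.89 for Fosb. The libraries did not overlap in 1 member higher in SAP (11.3% of all genes) and 2 lower (11.9%). When control libraries 1 and 2 were taken as separate samples, edgeR called Atf3 (adjusted p = 0.0405) and Fosb (0.0390), beside 0.213% of all genes, and DESeq2 called 4 members, beside 6.16%. The median log2 fold change was -0.06 over the members and 0.06 over all genes tested.

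The summed FPKM of 10 epithelial markers was 28595 to 29926 in the control samples and 11669 to 23319 in SAP, and that of 8 neutrophil markers was 1.15 to 2.54 and 8.41 to 80.6. B and plasma cell markers (205 to 213 in control, 64.8 to 187 in SAP) and endothelial markers (21.6 to 24.4 and 26.5 to 38.7) were also apart. Exocrine pancreas markers were narrowly apart (10.83 to 11.76 in control, 4.88 to 10.76 in SAP), and 5 of their 6 genes had a mean below 1 FPKM. Of the neutrophil markers, 6 had a mean below 1 FPKM and 0 were at 0 in all libraries. Their part in the values of Atf3, Fosb and the other members was not tested.

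The second comparison asks what JZL184 changes in rats with pancreatitis. Apart from Atf3 and Fosb, the members had higher mean FPKM in JZL184 than in SAP, with Ier3, Fosl1, Dusp1, Junb and Ier2 the furthest apart. edgeR called none of them, whereas DESeq2 and limma-voom called 5.

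Ier3 (chromosome 20), an immediate early gene known for its part in cell survival, had the largest difference of the members. It measured 8.65, 6.53, 14.99 and 21.20 FPKM in SAP libraries 1 to 4 and 40.41, 47.19, 81.17 and 38.75 FPKM in JZL184 libraries 1 to 4. The lowest JZL184 library had more than the highest SAP library. The log2 fold change was 2.11 (standard error 0.45, edgeR adjusted p = 0.0851, DESeq2 adjusted p = 6.5e-04).

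Fosl1 was 4.47, 6.41, 8.40 and 4.07 FPKM in the JZL184 libraries, all above the SAP maximum of 2.64. The log2 fold change over SAP was 1.83 (standard error 0.49, edgeR adjusted p = 0.107, DESeq2 adjusted p = 0.0083).

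Dusp1 (chromosome 10), the MAP kinase phosphatase, had 6.35, 4.44, 5.94 and 13.98 FPKM in SAP and 13.54, 21.45, 39.68 and 21.15 FPKM in JZL184. The groups met at SAP library 4 and JZL184 library 1. Its log2 fold change was 1.75 (standard error 0.47, edgeR adjusted p = 0.109, DESeq2 adjusted p = 0.0108).

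Junb (chromosome 19), a Jun protein often induced by cytokines, ranged from 42.83 to 98.38 FPKM in SAP and measured 105.76, 119.64, 222.04 and 164.25 FPKM in JZL184. On FPKM the groups were apart, while on TMM-normalized counts they overlapped. Its log2 fold change was 1.33 (standard error 0.37, edgeR adjusted p = 0.117, DESeq2 adjusted p = 0.022).

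Ier2 (chromosome 19) lay at 21.03, 16.98, 32.55 and 45.41 FPKM in SAP and at 50.75, 58.00, 93.50 and 54.12 FPKM in JZL184, without overlap. The log2 fold change was 1.25 (standard error 0.39, edgeR adjusted p = 0.137, DESeq2 adjusted p = 0.0424). JZL184 library 3 had the highest level of Ier3, Fosl1, Dusp1, Junb and Ier2 alike.

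For Jun (chromosome 5), SAP ran from 19.77 to 40.37 FPKM and JZL184 from 38.95 to 49.40, with a log2 fold change of 0.68 (standard error 0.28, edgeR adjusted p = 0.208). Egr1 spread widely in JZL184, with 13.27, 5.10, 34.51 and 8.23 FPKM, of which libraries 2 and 4 lay below the SAP maximum of 8.82. Its log2 fold change was 1.09 (standard error 0.49, edgeR adjusted p = 0.233), and 0.36 without JZL184 library 3. Fos (chromosome 6) was 8.49 to 21.63 FPKM in SAP and 10.46 to 29.97 in JZL184, with 3 of the 4 JZL184 libraries above the SAP range (log2 fold change 0.61, standard error 0.37, edgeR adjusted p = 0.344).

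Atf3 and Fosb, the members that were lower in SAP than in control, were at like levels in SAP and JZL184. Atf3 was 4.73 to 7.32 FPKM in JZL184 (log2 fold change 0.06, standard error 0.32) and Fosb was 0.07 to 0.28 FPKM (-0.35, standard error 0.45). Neither passed edgeR's test, and their standard errors leave room for a change in either direction.

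By edgeR, 0 of the 10 members and 0% of the 15308 genes tested were called. At an unadjusted p below 0.05, 7 members were higher, beside 10.3% of all genes, and 0 were lower, beside 11.1%. DESeq2 called 5 of 10 higher, beside 2.73% of the 23991 genes it tested without the filter on low counts. The count from limma-voom was also 5, beside 8.57% of the 15308 genes in either direction. The groups did not overlap in 3 members higher in JZL184, beside 6.23% of all genes, and in 0 lower, beside 5.59%. The median log2 fold change was 1.17 over the members and -0.05 over all genes. Without JZL184 library 1, edgeR called Ier3 (adjusted p = 0.0446) and 4.21% of all genes, and a fit of all 3 groups called Ier3 and 1.25%. With only SAP libraries 1 and 2 as the SAP group it called Ier3, Ier2, Junb, Dusp1 and Fosl1, with log2 fold changes of 3.03, 2.02, 1.94, 2.41 and 1.47, and with only SAP libraries 3 and 4 it called 0 members, at 1.55, 0.75, 0.89, 1.29 and 2.31. These settings called 18.1% and 0% of all genes.

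Epithelial markers summed to 10201 to 18920 FPKM in JZL184, within or just below the SAP range, and JZL184 library 3, which among the JZL184 libraries had the highest level of 8 of the 10 members, had the lowest sum. Smooth muscle markers summed to 2154 FPKM in JZL184 library 3, beside 980, 710 and 385 in JZL184 libraries 1, 2 and 4. Fibroblast markers were 36.25 to 66.81 FPKM in JZL184 and 65.95 to 149.7 in SAP. Neutrophil markers summed to 13.2 to 251 FPKM and were highest in JZL184 library 2. Macrophage markers were 70.6 to 181 FPKM in JZL184 and 124 to 304 in SAP. Their part in the differences of the members was not tested.

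**Figure D2:**
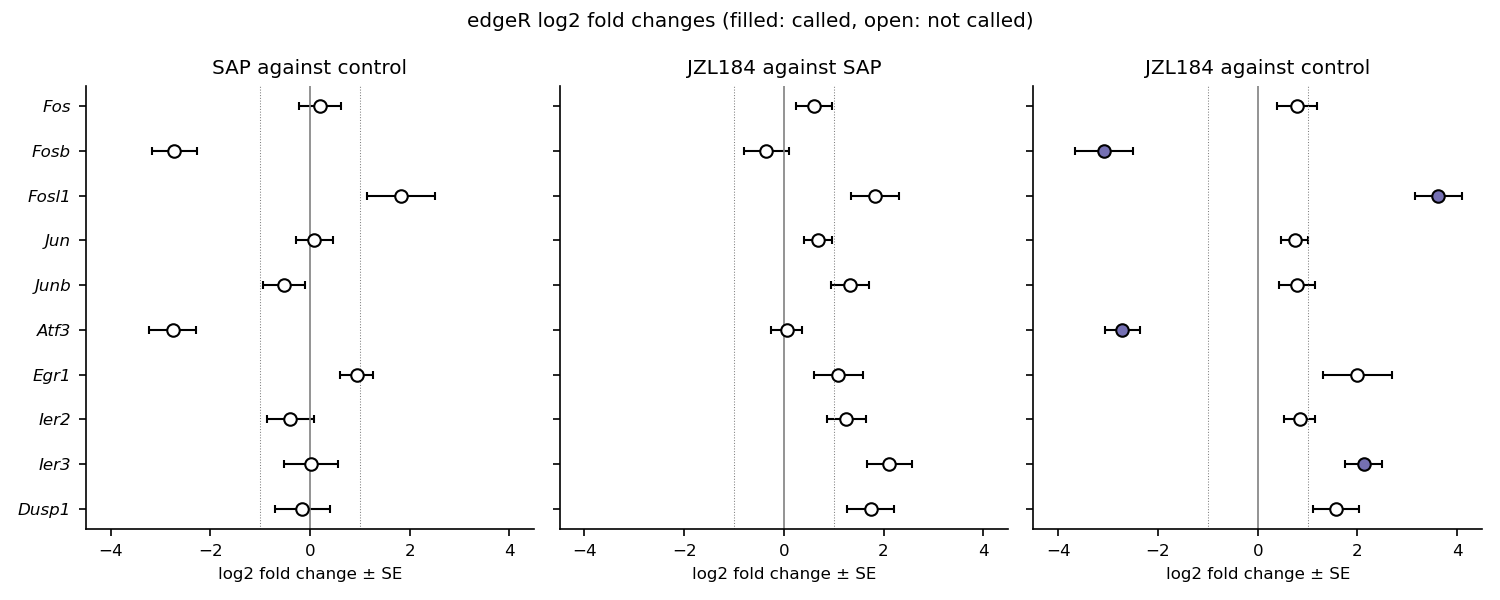
Log2 fold change of the 10 genes in the 3 comparisons by edgeR, with the standard error as a bar, filled points for called genes and dotted lines at the fold threshold. Between JZL184 and SAP the values run from -0.35 for Fosb to 2.11 for Ier3, and between JZL184 and control from -3.09 for Fosb to 3.63 for Fosl1.

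The third comparison sets JZL184-treated pancreatitis against control. It uses the JZL184 libraries of the second comparison and the control samples of the first, so the 3 comparisons are not independent. Fosl1 and Ier3 rose and Atf3 and Fosb fell, all by edgeR's test over all genes.

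Fosl1 was 12.3 times higher in JZL184 than in control (log2 fold change 3.63, standard error 0.47, edgeR adjusted p = 0.0156). Each of the 4 JZL184 libraries, at 4.07 to 8.40 FPKM, exceeded the control libraries, which stood between 0.23 and 0.58. The control level rested on 12 to 28 reads per library.

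Ier3 was 4.36 times higher (log2 fold change 2.12, standard error 0.38, edgeR adjusted p = 0.0357). The control libraries had 13.44, 10.76 and 10.91 FPKM, below the JZL184 minimum of 38.75. The control mean was 11.5 ± 0.84 FPKM (SD, n = 2), near the SAP mean of 12.8 ± 6.63 FPKM (SD, n = 4).

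Atf3 was 6.59 times lower (log2 fold change -2.72, standard error 0.35, edgeR adjusted p = 0.0156) and Fosb 8.52 times lower (-3.09, standard error 0.58, adjusted p = 0.0418). The levels of both in JZL184 lay below every control library, and Fosb had 7 to 35 reads in the JZL184 libraries.

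The other 6 members had positive values that did not pass edgeR's test. They were Egr1 at 2.00 (adjusted p = 0.122, and 1.28 without JZL184 library 3), Dusp1 at 1.57 (0.0907), Ier2 at 0.84 (0.145), Junb at 0.78 (0.203), Jun at 0.74 (0.138) and Fos at 0.78 (0.251). Of these, DESeq2 called Dusp1 and Egr1. Fos was the one member whose groups overlapped, since JZL184 library 2 lay below the control libraries.

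edgeR called 4 of the 10 members, 2 higher and 2 lower, beside 2.16% of the 15916 genes tested, of which 1.02% were higher and 1.14% lower. At an unadjusted p below 0.05, 6 members were higher, beside 13.8% of all genes, and 2 lower, beside 12.5%. DESeq2 called 4 members higher, beside 4.34% of the 23543 genes it tested, and 2 lower, beside 3.73%. With control libraries 1 and 2 as separate samples, both edgeR and DESeq2 called 6 members, beside 18.1% and 14.9% of all genes. The groups did not overlap in 7 members higher, beside 18.9% of all genes, and in 2 lower, beside 19.3%. The median log2 fold change was 0.81 over the members and 0.08 over all genes. The calls rested on few samples: 0 members were called without control library 3, without the sample of control libraries 1 and 2, or without JZL184 library 2, and 2 (Fosl1, Atf3) without JZL184 library 4. Without control library 3 the edgeR adjusted p values were 0.0548 for Atf3, 0.152 for Fosb and Fosl1 and 0.201 for Ier3. Without JZL184 library 4 they were 0.0942 for Fosb and 0.0677 for Ier3. Without JZL184 library 2 they were 0.0545 for Fosl1, 0.0599 for Atf3, 0.0893 for Ier3 and 0.0925 for Fosb, and with all 3 groups in 1 fit Ier3 was at 0.0703. Without the sample of control libraries 1 and 2, where control library 3 alone is assumed to vary like the JZL184 libraries, they were 0.322 to 0.554, and the log2 fold changes of Atf3 and Fosb were -1.96 and -2.29. All genes called made up 0.00601% without control library 3, 0% without the sample of control libraries 1 and 2, 0.158% without JZL184 library 2 and 0.493% without JZL184 library 4, and 2.23% with all 3 groups in 1 fit. Epithelial markers were lower in JZL184 than in control in all 4 libraries (10201 to 18920 against 28595 to 29926 FPKM), and neutrophil markers higher (13.2 to 251 against 1.15 to 2.54 FPKM). The markers of macrophages (70.6 to 181 against 238 to 276), T cells (87.1 to 113 against 131 to 151), B and plasma cells (83.6 to 128 against 205 to 213) and exocrine pancreas (4.19 to 9.32 against 10.8 to 11.8) were lower in all JZL184 libraries, and those of endothelium (25.6 to 35.2 against 21.6 to 24.4) and enteric neurons and glia (25.2 to 35.0 against 18.7 to 19.5) higher. Their part in the members' values was not tested.

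The members of a family compete for partners, so the share of each gene in the summed FPKM of its family was also described, with no test. Among Fos, Fosb, Fosl1 and Fosl2, Fosl1 made up 1.69% and 2.71% in the control samples, 1.64% to 13.2% in SAP and 9.47% to 25.6% in JZL184. Fosb made up 4.09% to 7.69% in control and at most 1.15% in any other library. Fos itself remained the most abundant family member in every sample, at 41.8% to 73.0%. Among Jun, Junb and Jund, Junb made up 32.3% to 33.1% in control, 34.8% to 39.5% in SAP and 51.3% to 58.9% in JZL184. Jund, which is known to be present in resting cells, made up 54.8% to 60.6%, 39.9% to 51.9% and 26.6% to 30.96%. The ranges of Junb and of Jund did not overlap between any of the 3 groups. Junb was thus the most abundant Jun gene in each JZL184 library and Jund in each control and SAP library. A share also moves with the other genes of the family. Jund had 132 to 172 FPKM in control, 53.2 to 110 in SAP and 61.3 to 122 in JZL184. Junb had 79.6 to 91.9, 42.8 to 98.4 and 106 to 222 FPKM, so its larger share in SAP than in control went with no higher mean level.

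**Figure D3:**
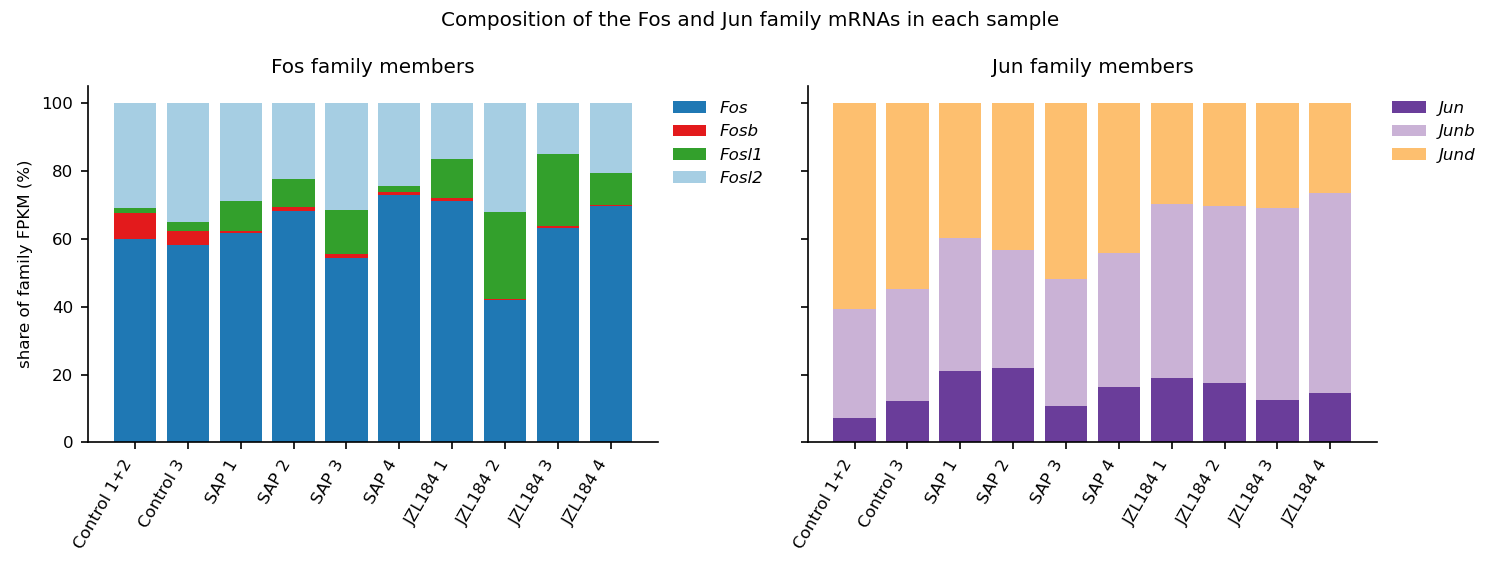
Share of each gene in the summed FPKM of the Fos family and of the Jun family, as stacked bars in percent for 2 control samples, 4 SAP and 4 JZL184 libraries. Junb takes 51.3% to 58.9% of the Jun family in JZL184, and 32.3% to 33.1% in control.

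A wider set of 65 immediate early genes, of the AP-1 family, early transcription factors and early or stress effectors, was examined beside the members. Between SAP and control, edgeR called 0 of the 63 tested, DESeq2 called 0 and 1 was higher and 6 lower at an unadjusted p below 0.05, beside 5.69% and 3.4% of all genes. The 3 smallest p values belonged to Csrnp1, an early nuclear protein (log2 fold change -1.34, standard error 0.48, edgeR adjusted p = 0.459), Bhlhe40, a transcription factor of the clock and stress responses (1.17), and Dusp8, a phosphatase of MAP kinases (-0.77).

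Between JZL184 and SAP, edgeR called 0 of the 62 tested, with 53 values above 0 and a median of 0.64, beside -0.05 over all genes. At an unadjusted p below 0.05, 28 were higher and 1 lower, beside 10.3% and 11.1% of all genes. DESeq2 called 13 higher and 1 lower, beside 2.73% and 2.61%. The smallest p values were those of Ppp1r15a, Gadd45a and Gadd45g, genes of the stress and growth arrest response. Ppp1r15a had 22.15 to 45.97 FPKM in SAP and 51.84, 136.64, 186.60 and 148.60 FPKM in JZL184, without overlap. Its log2 fold change was 2.16 (standard error 0.44, edgeR adjusted p = 0.0851), that of Gadd45a 1.53 (adjusted p = 0.0854) and that of Gadd45g 1.92 (adjusted p = 0.0909). Without JZL184 library 1, edgeR called 8 of the wider genes, beside 4.21% of all genes.

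Between JZL184 and control, edgeR called 3 of 63, all higher in JZL184, beside 1.02% of all genes. Cebpd, a transcription factor of the acute phase response, rose by a log2 fold change of 2.61 (standard error 0.47, edgeR adjusted p = 0.0357), from 11.35, 13.38 and 24.06 FPKM in control to 81.69, 143.67, 83.72 and 133.04 in JZL184. Bhlhe40 rose by 2.27 (standard error 0.30, adjusted p = 0.0167), from 6.96 to 7.97 FPKM in control to 31.49 to 44.67 in JZL184. Spry2, a feedback inhibitor of growth factor signalling, rose by 1.96 (standard error 0.37, adjusted p = 0.0425). The median of the 63 genes was 0.57, and 50 were above 0. With a library left out, edgeR called 0 of them without control library 3, without the sample of control libraries 1 and 2 or without JZL184 library 2, 1 without JZL184 library 4, 7 without JZL184 library 3 and 17 without JZL184 library 1. The share of all genes called moved too, to 5.46% and 12% in the last 2 settings.

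Of 28 upstream kinases and factors, such as MAP kinases, serum response factor and its partners, edgeR called 0 in each comparison. The counts at an unadjusted p below 0.05 were 2 higher and 1 lower between SAP and control, 5 and 5 between JZL184 and SAP, and 6 and 1 between JZL184 and control, and DESeq2 called 0, 1 and 3, all higher. The shares of all genes were 5.69% and 3.4%, 10.3% and 11.1%, and 13.8% and 12.5% at that p, and 0.627%, 2.73% and 4.34% higher by DESeq2.

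Of 20 known AP-1 target genes, 19 were tested and Mmp1 was not among the symbols. edgeR called 0 between SAP and control and 0 between JZL184 and SAP, with 6 and 10 higher at an unadjusted p below 0.05, 0 and 1 lower, and 2 and 8 called by DESeq2, of which 2 and 7 were higher. The shares of all genes were 5.69% and 10.3% higher at that p, and 0.627% and 2.73% higher by DESeq2. The shares lower were 3.4% and 11.1% at that p, and 0.266% and 2.61% by DESeq2. Between JZL184 and control it called 4, all higher, beside 1.02% of all genes. The metalloproteinase inhibitor Timp1 rose by 2.57 (standard error 0.40, edgeR adjusted p = 0.0239), from 42.79, 43.90 and 33.83 FPKM in control to 160.04, 278.39, 282.50 and 216.12 in JZL184, and the secreted phosphoprotein Spp1 by 1.92 (standard error 0.35, adjusted p = 0.0385). The matrix metalloproteinase Mmp3 (edgeR adjusted p = 0.0476) had 3, 0 and 0 reads in the control libraries and 44, 305, 60 and 105 in JZL184. The median of the 19 targets was 1.87, beside 0.08 over all genes. Of the targets, edgeR called 0 without control library 3, without the sample of control libraries 1 and 2 or without JZL184 library 2, 1 without JZL184 library 4, 9 without JZL184 library 3 and 12 without JZL184 library 1. Without JZL184 library 2, 4, 3 or 1, edgeR called 0.158%, 0.493%, 5.46% and 12% of all genes, in that order. Between JZL184 and SAP it called 7 targets without JZL184 library 1, beside 4.21% of all genes.

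**Figure D4:**
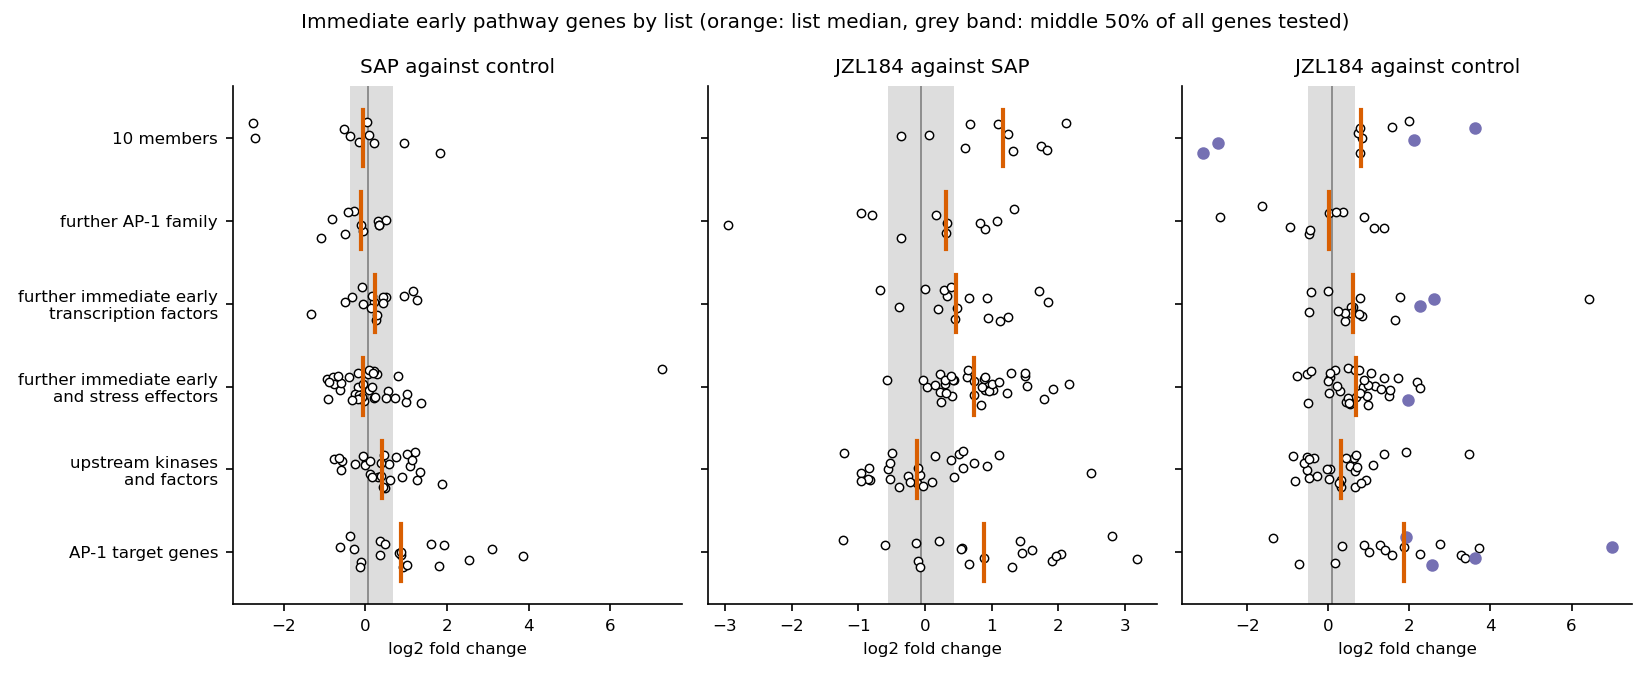
Log2 fold change by edgeR of each gene tested in the members, the 3 lists of wider immediate early genes, the upstream kinases and factors and the AP-1 target genes, in 3 comparisons with axes of their own range. Filled points are called genes, orange bars the median of each list, and the grey line and band the median and the middle 50% of all genes tested; between JZL184 and SAP the medians are 1.17 for the members, -0.11 for the upstream genes and 0.88 for the targets.

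The genes whose pattern over the 10 samples was most like the mean of the members were also sought, among genes with a mean FPKM of at least 1, with 9 members since Fosb was below that level. The 5 highest Pearson r values were those of Per1 (0.97), a clock gene known to respond to stimuli as an immediate early gene, Nudt6 (0.97), LOC120095909 (0.96), RGD1563888 (0.96) and Ctla4 (0.96), a receptor of T cells. The samples share their tissue makeup and depth, so these values are a description. Per1 ran from 1.20 to 2.32 FPKM in SAP and from 3.21 to 7.45 in JZL184. Of the members themselves, Dusp1 (0.95), Ier3 (0.94), Junb (0.92), Ier2 (0.90) and Jun (0.87) followed the mean most closely, Egr1 (0.74), Fosl1 (0.65) and Fos (0.58) less, and Atf3 (-0.21) did not. Each of these 9 members is part of that mean, which raises its own r, so these values cannot be set against those of the other genes. Without SAP libraries 1 and 2, 2 of the 5 genes stayed among the 5 highest.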

How the data were processed

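Stranded libraries of ileal RNA were sequenced. The authors trimmed reads with FASTX-Toolkit, aligned them to mRatBN7.2 with HISAT2 and counted uniquely aligned reads, and the deposited counts are not normalized. The FPKM values were deposited to 2 decimals and were calculated by the authors from those counts. The name of the counting tool, with its annotation and use of strand, was not given in the sources used here. DESeq2 is named in the submitters' processing notes.

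The 10 genes and all lists were chosen with earlier results of these data known, as were the tests. Reads of control libraries 1 and 2 were summed and their FPKM averaged. Groups were compared in pairs with edgeR 4.0.16 (R 4.3.3) by its quasi-likelihood F test after TMM scaling and filterByExpr (minimum count 10). The call needed a p under 0.05 after Benjamini-Hochberg adjustment over all genes tested, and a fold over 2 or under 0.5. Overlap of groups was judged on TMM-normalized CPM. Alternatives were DESeq2 1.42.0, voom with quality weights per sample from limma 3.58.1, separate control libraries, DESeq2 size factors in edgeR, no low-count filter, no fold threshold, all 3 groups in 1 fit, the replicate number as a block, gene length offsets (loess span 0.3), offsets and block together, SAP libraries 1 and 2 or 3 and 4 alone, and each library left out. DESeq2 with separate control libraries was added after seeing the data. DESeq2 was run without filterByExpr, so its shares of all genes are over more genes than those of edgeR and limma-voom. Simulated data, in which 200 genes differed 4-fold, were used to check the tests. They were drawn with the spread (dispersion) of the real data and with that dispersion divided by 10. How many of the 200 genes were recovered is not reported here. Likeness used log2(FPKM + 1).

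Named genes are the 10 members in every comparison, every called gene of the other lists (except 1 AP-1 target gene, which is not reported here), where none of a list was called the 3 smallest unadjusted p values of the wider immediate early lists, the 5 genes most like the members' mean, and cell type markers as sums. Depth was 26341299 to 33847135 reads on genes per library, so that the spread between libraries rather than counting limited the precision of all but the lowest genes. Tables and plots were made in Python 3.11.15 (pandas 2.3.3, numpy 2.4.6, matplotlib 3.10.9).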

Additional observations from a re-analysis of the deposited data

Results flagged for a closer look

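Within groups of 4 libraries, the highest or lowest library was compared with the others by Dixon's ratio of its gap to the range, for 54 groups over 27 genes. Chance gives about 1 such flag in 20 groups, and 3 were found in the 54 groups, which is near that rate. All 3 were JZL184 library 3, with the highest value. Jun had 49.40 FPKM there and 38.95 to 40.35 in the other JZL184 libraries, Ier2 had 93.50 beside 50.75 to 58.00, and Nudt6 had 3.57 beside 2.27 to 2.49. Nudt6 was looked at because its pattern was like the members' mean, so its flag is not separate from those of Jun and Ier2. The same library had the lowest sum of epithelial markers, 10201 FPKM. Among the JZL184 libraries it also had the highest sum of smooth muscle markers, 2154 FPKM, and the highest level of 8 of the 10 members.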

How the results depend on the processing

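Of 520 values of the members under alternatives, 438 kept their direction and their side of the threshold, 44 were called only under the alternative, 15 lost their call, all between JZL184 and control, and 23 changed sign. Of the 438, 145 were between SAP and control and 160 between JZL184 and SAP. There the main fit called 0 of all genes, so staying uncalled is easily met and is no measure of robustness.

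Counts of called genes are given for the members, wider immediate early genes, upstream genes and AP-1 targets in that order. Between SAP and control they were 0 throughout, but 2, 0, 0 and 2 with DESeq2, 4, 5, 3 and 6 with DESeq2 and separate control libraries, 5, 18, 11 and 8 with only SAP libraries 1 and 2, and 2, 0, 0 and 2 with only SAP libraries 3 and 4. Separate control libraries in edgeR gave 2 members. Of all genes, these settings called 0.894%, 6.16%, 37.2% and 0.482%, and separate control libraries 0.213%. Leaving out a library gave 0. Between JZL184 and SAP they were 0, but 5, 14, 1 and 8 with DESeq2, 5, 19, 3 and 7 with limma-voom, 1, 1, 1 and 3 with all 3 groups in 1 fit, and 5, 16, 6 and 6 with only SAP libraries 1 and 2 (5.35%, 8.57%, 1.25% and 18.1% of all genes). Leaving out a library gave 0 to 1, 0 to 8, 0 to 2 and 0 to 7, each highest without JZL184 library 1. Between JZL184 and control, from 4, 3, 0 and 4, separate control libraries gave 19 wider genes, 3 upstream genes and 13 targets, DESeq2 15, 3 and 13, DESeq2 with separate control libraries 22, 3 and 14, limma-voom 20, 3 and 12, and no low-count filter 11, 2 and 10 (18.1%, 8.07%, 14.9%, 18.2% and 3.93% of all genes, from 2.16%). Gene length offsets gave 5 wider genes, and 1 fit of all 3 groups 1 upstream gene (2.09% and 2.23% of all genes). Leaving out a JZL184 library gave 0 to 5 members, 0 to 17 wider genes, at most 4 upstream genes and 0 to 12 targets, beside 0.158% to 12% of all genes.

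The replicate block gave 6 members, 13 wider genes, 3 upstream genes and 11 targets between JZL184 and control, and with gene length offsets 6, 11, 1 and 10 (9.65% and 7.71% of all genes). The numbers did not pair the samples: deviations of same-numbered libraries had r of -0.39 to -0.26 for control and SAP, -0.14 to 0.22 for control and JZL184 and -0.55 to 0.17 for SAP and JZL184, and 1 of 4 SAP libraries matched its own number best.

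Signs that changed between SAP and control were of Fos (-0.073 with the block, -0.014 to 0.41 with a library left out, 0.45 without the sample of control libraries 1 and 2), Jun (-0.031 with limma-voom, -0.10 with the block, -0.14 with block and offsets, -0.11 with SAP libraries 1 and 2, -0.19 to 0.29 with a library left out, -0.092 without the sample of control libraries 1 and 2), Ier2 (0.11 with SAP libraries 3 and 4), Ier3 (-0.0053 with separate control libraries, -0.014 with DESeq2 and these, -0.22 with limma-voom, -0.53 with the block, -0.89 with SAP libraries 1 and 2, -0.40 to 0.28 with a library left out) and Dusp1 (0.31 with SAP libraries 3 and 4, -0.70 to 0.24 with a library left out). Between JZL184 and SAP, Atf3 was at -0.20 with SAP libraries 3 and 4 and -0.071 to 0.40 with a library left out. The causes were not tested. Of the 5 genes most like the members, 3 stayed with a minimum FPKM of 0.1 and 2 without SAP libraries 1 and 2.

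With 2 control samples, a single control sample decides calls against control. Fosb, Fosl1 in control and Mmp3 rest on few reads.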

Other observations

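Further genes of the lists, chosen after their values were seen, had values apart from the members. Map3k8, a kinase upstream of MAP kinases, had 1.54, 3.50, 10.62 and 3.16 FPKM in the JZL184 libraries, above the SAP libraries at 0.54 to 1.30 (log2 fold change 2.50, standard error 0.55, edgeR adjusted p = 0.0851). The AP-1 relative Batf2 was lower in every JZL184 library, at 0.09 to 0.94 FPKM, than in every SAP library, at 1.54 to 5.08 (log2 fold change -2.95, standard error 0.71, edgeR adjusted p = 0.0909). Batf3, a factor of dendritic cells, measured 40.55, 40.79 and 71.56 FPKM in control, 23.37 to 44.94 in SAP and 14.20 to 24.40 in JZL184, with a log2 fold change of -1.64 between JZL184 and control (standard error 0.35, edgeR adjusted p = 0.0526). None of the 3 passed edgeR's threshold.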
